A study of Homo sapiens with 12 samples.

Results

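The genes described here are 9 members of a pair of calcium-binding protein families: the S100 genes S100A4, S100A6, S100A10, S100A11 and S100A16, and the annexin genes ANXA1, ANXA2, ANXA3 and ANXA5. They were taken by symbol from the first column of the count tables, where all 9 were present among 16384 listed genes. RNA was sequenced in 12 libraries of MDA-MB-231, an established human triple-negative breast cancer line, labelled as wild type, with 3 libraries in each of 4 groups. The DMSO group received the vehicle, the CAR group 10 µmol/L of the agent that the series title names as cardamonin, a plant chalcone, and the JQ1 group 25 µmol/L of JQ1, an inhibitor of the BET bromodomain proteins. The Combination group is labelled as receiving both agents. The labels give no time of treatment, and the results concern 1 line in culture. Levels are CPM, the usual per-million scaling of read counts, with library totals adjusted by TMM factors, and changes are log2 fold changes ± SE.

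S100 proteins are small EF-hand proteins that change shape when they bind calcium and then dock onto targets such as cytoskeletal motors, ubiquitin ligase adaptors and annexins. Annexins bind acidic phospholipids on membranes in the presence of calcium and take part in membrane repair, vesicle traffic and the cell-surface assembly of the plasmin system. In breast cancer cells, S100A4 is known for its link to cell motility and metastasis, and the complex of annexin A2 with S100A10 is known for capturing plasminogen activator and plasminogen at the cell surface. Many of the S100 genes lie side by side in the epidermal differentiation region of chromosome 1.

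The 250 bases before the start site are shown for 5 members on which the results turn. S100A4, S100A6 and S100A16 lie in the same cluster on chromosome 1 and responded differently to the drugs. S100A10 and ANXA2, on different chromosomes, encode partners and moved in parallel. The sequences are from RefSeq on GRCh38.p14, read 5′ to 3′ on the minus strand, which is the strand of all 5 genes, and 9 of 9 members had an entry. Capitals mark a match to any of the motifs searched on both strands: AP-1 (TGANTCA), the antioxidant response element core (TGACNNNGC), TEAD (GGAATG), an E-box (CACGTG), a GC box (GGGCGG) and a TATA box (TATAAA). The windows are chr1:153545807-153546056 for S100A4, chr1:153535992-153536241 for S100A6, chr1:153613138-153613387 for S100A16, chr1:151993860-151994109 for S100A10 and chr15:60397987-60398236 for ANXA2.
S100A4: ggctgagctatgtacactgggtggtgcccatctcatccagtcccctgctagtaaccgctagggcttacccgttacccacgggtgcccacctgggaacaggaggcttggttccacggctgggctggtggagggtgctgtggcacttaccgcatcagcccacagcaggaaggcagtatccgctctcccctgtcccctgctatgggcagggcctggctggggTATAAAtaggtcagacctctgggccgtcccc
S100A6: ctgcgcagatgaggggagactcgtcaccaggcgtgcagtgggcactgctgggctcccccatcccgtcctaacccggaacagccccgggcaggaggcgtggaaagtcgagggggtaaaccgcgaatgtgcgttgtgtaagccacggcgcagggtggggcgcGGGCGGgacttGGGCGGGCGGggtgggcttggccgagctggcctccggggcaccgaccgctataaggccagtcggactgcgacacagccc
S100A16: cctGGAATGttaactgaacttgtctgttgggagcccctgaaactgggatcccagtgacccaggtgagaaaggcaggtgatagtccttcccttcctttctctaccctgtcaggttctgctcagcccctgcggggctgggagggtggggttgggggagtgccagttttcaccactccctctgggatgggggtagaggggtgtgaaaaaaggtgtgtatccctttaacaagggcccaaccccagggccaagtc
S100A10: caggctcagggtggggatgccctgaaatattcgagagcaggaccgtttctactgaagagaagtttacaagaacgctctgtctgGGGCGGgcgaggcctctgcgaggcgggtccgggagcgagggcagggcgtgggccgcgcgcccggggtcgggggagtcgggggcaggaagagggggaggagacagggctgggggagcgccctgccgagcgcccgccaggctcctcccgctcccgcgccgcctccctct
ANXA2: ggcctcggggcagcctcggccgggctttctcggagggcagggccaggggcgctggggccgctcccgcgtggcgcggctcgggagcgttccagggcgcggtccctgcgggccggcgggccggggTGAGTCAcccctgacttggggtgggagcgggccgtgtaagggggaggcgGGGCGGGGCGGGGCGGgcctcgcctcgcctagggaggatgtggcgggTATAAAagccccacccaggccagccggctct
The TATAAA word stood in S100A4 and ANXA2, and also in ANXA1, with its first base 31 bases before the start site in all 3 genes. It was present in 10.7% of the 35116 promoter windows of this length. GGGCGG stood in S100A6, S100A10, S100A11, ANXA2 and ANXA5, which is 5 of 9 members against 42.6% of all windows, and its copies overlap each other in S100A6 and ANXA2. TGANTCA was found in ANXA2 alone among the 9, against 6.57% of windows, and GGAATG in S100A16 alone, against 11.9%. Neither TGACNNNGC nor CACGTG was found in the windows of the 9 members, against 10.9% and 6.34% of all windows. These matches describe letters in a window and no binding was measured.

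Each library held 17449715 to 19754456 counts. The filter on expression left 12645 genes, all 9 members among them. Markers of a basal, mesenchymal breast cancer line (VIM, CD44, EGFR, AXL and MSN) were all present, at a summed 5691 to 5969 CPM in the DMSO and CAR libraries, 3193 to 3242 in JQ1 and 2737 to 2909 in Combination. EGFR had a mean of 380 CPM in DMSO, 480 in JQ1 and 503 in Combination. The means of VIM, CD44, AXL and MSN were lower in JQ1 and Combination than in DMSO. Receptor and epithelial markers that the line is known to lack or hold low (ESR1, PGR, CDH1 and EPCAM) summed to at most 16.8 CPM, leukocyte markers to at most 3.45, endothelial markers to at most 8.53 and fibroblast markers to at most 7.97. A pair of libraries stood apart. DMSO replicate 3 had a length trend, the correlation across genes of transcript length with its deviation from the other libraries of its group, of -0.715, against 0.614 and 0.612 in the other DMSO libraries and -0.226 to 0.213 in the 9 drug libraries. It was the highest DMSO library for 8 of 9 members, at up to 1.18 times the mean of the other DMSO libraries, so results against DMSO are also given without it where that matters. Member transcripts measure 570 to 1859 bases, shorter than the median of 2581 over tested genes, and the part of transcript length was not tested beyond a length correction of the fit. Combination replicate 1 had 1429 counts of ALB against 4 to 10 in the other libraries, and 10 hepatocyte markers summed to 135 CPM there against 2.21 and 2.40 in the other Combination libraries. Without that library the log2 changes in Combination were -1.95 for S100A4, -1.16 for S100A6, -0.61 for S100A11, -3.06 for S100A16, -0.95 for ANXA1 and -2.45 for ANXA3. ANXA2 shares 29.3% of its 50-base words with its pseudogenes ANXA2P1, ANXA2P2 and ANXA2P3, so its counts are less certain than those of the other members, of which S100A11 shared 2.20% and the rest none. S100A3 lies within the span of S100A4 on the same strand (2044 shared bases), and antisense genes overlap S100A6 and S100A11, whose reads cannot be told apart where counting did not use strand.

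S100A4 and S100A6 were lower with each drug and lowest with both. S100A4 (chr1:153543613-153550136, minus strand), which binds non-muscle myosin IIA and loosens its filaments, had 255, 241 and 288 CPM in the DMSO libraries. The CAR libraries had 131, 130 and 137 CPM, the JQ1 libraries 124, 117 and 121, and the Combination libraries 66.3, 66.6 and 68.7. The 4 groups did not overlap, with the Combination libraries lowest. Because bulk RNA was measured, fewer cells of a kind and less RNA per cell cannot be told apart, here or in the results that follow. S100A4 fell by 0.98 ± 0.05 on the log2 scale in CAR, a 1.97-fold lower level (quasi-likelihood test of edgeR, Benjamini-Hochberg adjusted p over all tested genes = 1.28e-12). In JQ1 it fell by 1.11 ± 0.05, or 2.17-fold (edgeR, adjusted p = 6.25e-15), and in Combination by 1.96 ± 0.05, or 3.89-fold (edgeR, adjusted p = 7.65e-19). The labels do not say that the replicates came from separate cultures, so every p-value reflects the scatter among these libraries alone, and that scatter may be technical.

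S100A6 (calcyclin, chr1:153534599-153536244, minus strand), which binds the ubiquitin ligase adaptor CACYBP, had 1021, 976 and 1163 CPM in DMSO. It had 578, 601 and 589 CPM in CAR and 615, 573 and 603 in JQ1, so the single-drug groups overlapped each other and lay below every DMSO library. In Combination it had 469, 465 and 474 CPM, below all other libraries. The fall was 0.84 ± 0.05 in CAR (edgeR, adjusted p = 1.51e-11), 0.82 ± 0.05 in JQ1 (edgeR, adjusted p = 1.39e-12) and 1.17 ± 0.05 in Combination (edgeR, adjusted p = 3.61e-15), which is 1.79-fold, 1.76-fold and 2.24-fold. Without DMSO replicate 3, the 3 log2 changes were -0.90, -1.04 and -1.88 for S100A4 and -0.76, -0.74 and -1.08 for S100A6, all still past the threshold.

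**Figure D1:**
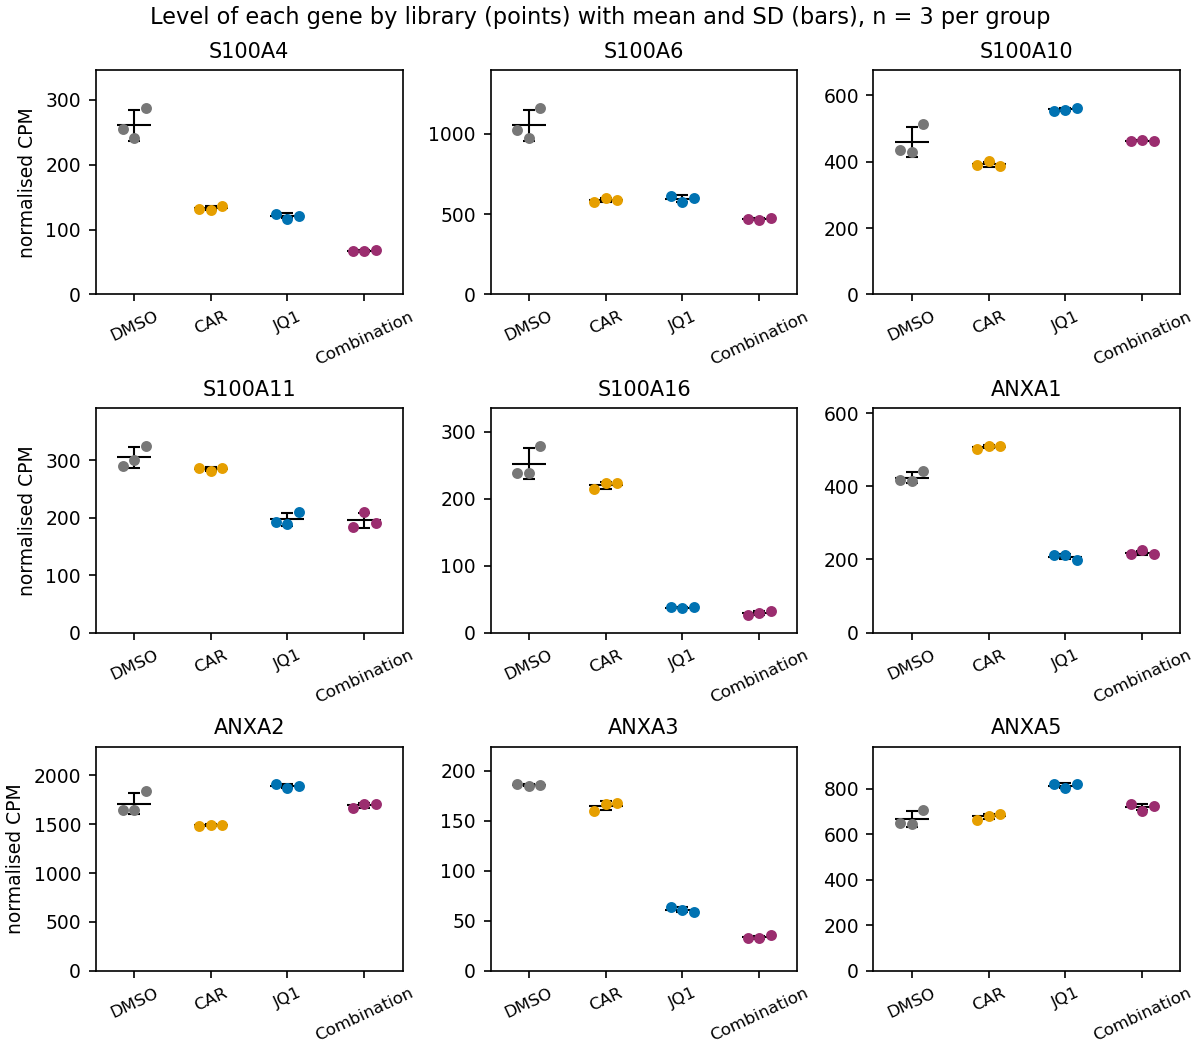
Normalised CPM of each member (vertical axes, linear, from 0) in DMSO, CAR, JQ1 and Combination; points are the 3 libraries of a group, and bars their mean and SD. S100A4 ran from 241 to 288 in DMSO and from 66.3 to 68.7 in Combination, while ANXA2 stayed between 1482 and 1913 in all 12 libraries.

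S100A16 and S100A11 were lower mainly in the groups that received JQ1. S100A16 (chr1:153606886-153613145, minus strand), an EF-hand protein of the same gene cluster, had 238, 239 and 279 CPM in DMSO and 214, 224 and 223 in CAR. In JQ1 it had 37.5, 36.3 and 38.3 CPM, and in Combination 25.6, 28.7 and 31.8. The JQ1 and Combination libraries lay far below both other groups, and the Combination libraries lay below the JQ1 libraries. The fall was 6.74-fold in JQ1 (log2 change -2.75 ± 0.07, edgeR, adjusted p = 6.68e-18) and 8.77-fold in Combination (-3.13 ± 0.07, edgeR, adjusted p = 1.46e-18). In CAR the change was -0.19 ± 0.06 (edgeR, adjusted p = 0.00751), and -0.11 without DMSO replicate 3 (edgeR, adjusted p = 0.00482).

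S100A11 (chr1:152032506-152047907, minus strand), a partner of annexin A1 that also binds annexin A2, had 289, 301 and 325 CPM in DMSO and 286, 281 and 287 in CAR. It had 192, 189 and 209 CPM in JQ1 and 184, 209 and 191 in Combination. The JQ1 and Combination libraries overlapped each other and lay below all DMSO and CAR libraries. S100A11 fell 1.55-fold in JQ1 (-0.63 ± 0.05, edgeR, adjusted p = 1.77e-10) and 1.57-fold in Combination (-0.65 ± 0.05, edgeR, adjusted p = 1.13e-10). Its CAR value of -0.10 ± 0.05 missed the threshold (edgeR, adjusted p = 0.0952), though it passed at -0.14 without DMSO replicate 1 (edgeR, adjusted p = 0.0336). It passed also at -0.16 with library totals alone, at -0.13 with upper-quartile scaling and at -0.13 after the correction for transcript length (edgeR, adjusted p = 0.00746, 0.0358 and 0.00573). Its value was -0.05 without DMSO replicate 3 (edgeR, adjusted p = 0.324).

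S100A10 and ANXA2, which encode the subunits of the annexin A2 complex, moved little and in parallel: lower in CAR, higher in JQ1, and with Combination and DMSO libraries that overlapped. S100A10 (p11, chr1:151982915-151994390, minus strand), which no longer binds calcium, had 436, 429 and 513 CPM with vehicle and 389, 401 and 387 with CAR. It had 554, 556 and 563 CPM with JQ1 and 463, 464 and 462 with both drugs. The third DMSO library was the highest of its group, and the Combination libraries lay within the DMSO range. S100A10 fell by 0.23 ± 0.05 in CAR (edgeR, adjusted p = 0.000438) and rose by 0.28 ± 0.05 in JQ1 (edgeR, adjusted p = 1.86e-05). In Combination its change was 0.01 ± 0.05 (edgeR, adjusted p = 0.849). Without DMSO replicate 3 the CAR change was -0.14, still past the threshold, and the Combination change was 0.10 and passed it (edgeR, adjusted p = 0.000577).

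ANXA2 (chr15:60347134-60402883, minus strand), the membrane-binding subunit, had 1651, 1644 and 1838 CPM in DMSO and 1482, 1496 and 1495 in CAR. It had 1913, 1872 and 1887 CPM in JQ1 and 1665, 1708 and 1712 in Combination. Every CAR library lay below, and every JQ1 library above, the DMSO libraries. The change was -0.20 ± 0.04 in CAR (edgeR, adjusted p = 0.000146), 0.14 ± 0.04 in JQ1 (edgeR, adjusted p = 0.00155) and -0.01 ± 0.04 in Combination (edgeR, adjusted p = 0.743). The JQ1 and Combination values of both genes moved with the scaling. With library totals alone, JQ1 gave 0.16 for S100A10 and 0.02 for ANXA2, the latter no longer past the threshold (edgeR, adjusted p = 0.567), and Combination gave -0.20 and -0.22, both then called lower (edgeR, adjusted p = 0.00108 and 2.59e-05). After a correction for transcript length, JQ1 gave 0.45 and 0.31 and Combination 0.14 and 0.13, both then called higher (edgeR, adjusted p = 3.65e-05 and 1.54e-05). The ratio of S100A10 to ANXA2 does not depend on the scaling of a library. Per kilobase of transcript it was 0.426 ± 0.0151 (SD, n = 3) in DMSO, 0.418 ± 0.00727 in CAR, 0.468 ± 0.00769 in JQ1 and 0.434 ± 0.00672 in Combination. The JQ1 libraries, at 0.46 to 0.474, had the 3 highest ratios of the 12.

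ANXA1 and ANXA3 were lower with JQ1, and ANXA3 was lower still with both drugs. ANXA1 (chr9:73151757-73170393, plus strand), a ligand of formyl peptide receptors with anti-inflammatory action, had 416, 415 and 441 CPM in DMSO and 503, 510 and 511 in CAR. It had 212, 212 and 199 CPM in JQ1 and 215, 225 and 215 in Combination. Every CAR library was above DMSO and every JQ1 and Combination library below it. ANXA1 was the only member past the threshold upward in CAR, with all 12 libraries in the fit, at 0.26 ± 0.04 or 1.20-fold (edgeR, adjusted p = 3.88e-06). It fell 2.04-fold in JQ1 (-1.03 ± 0.04, edgeR, adjusted p = 1.66e-16) and 1.94-fold in Combination (-0.96 ± 0.04, edgeR, adjusted p = 4.8e-16). The ratio of S100A11 to ANXA1 per kilobase was 2.25 ± 0.0678 in DMSO, 1.75 ± 0.0285 in CAR, 2.97 ± 0.276 in JQ1 and 2.79 ± 0.124 in Combination (SD, n = 3). The CAR ratios were below all others, and those of JQ1 and Combination overlapped each other.

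ANXA3 (chr4:78551519-78610451, plus strand), another phospholipid-binding annexin, was the member with the least spread in DMSO, at 187, 185 and 186 CPM. It had 160, 167 and 168 CPM with CAR, 63.7, 61.2 and 58.6 with JQ1 and 32.4, 32.8 and 35.4 with both drugs. The 4 groups did not overlap. ANXA3 fell by 0.17 ± 0.04 in CAR (edgeR, adjusted p = 0.000839), 3.04-fold in JQ1 (-1.60 ± 0.04, edgeR, adjusted p = 6.77e-19) and 5.55-fold in Combination (-2.47 ± 0.05, edgeR, adjusted p = 1.66e-21). Without DMSO replicate 3 its log2 changes were the same to 2 decimals, at -0.17, -1.60 and -2.47.

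ANXA5 (chr4:121667955-121697113, minus strand), which binds exposed phosphatidylserine and serves as a probe for dying cells, had 648, 644 and 708 CPM in DMSO and 664, 680 and 689 in CAR, and these groups overlapped. In JQ1 it had 821, 801 and 819 CPM, above all other libraries, and in Combination 731, 703 and 726. ANXA5 rose 1.22-fold in JQ1 (0.29 ± 0.04, edgeR, adjusted p = 3.6e-07), a value that was 0.17 with library totals alone and 0.45 after the length correction. Its Combination change of 0.11 ± 0.04 passed the threshold (edgeR, adjusted p = 0.00937), although the Combination and DMSO libraries overlapped. That change was -0.10 with library totals alone, a call in the other direction (edgeR, adjusted p = 0.0291), and 0.26 after the length correction, and the call was lost at 0.09 without DMSO replicate 1 or 2 (edgeR, adjusted p = 0.0601 and 0.0563). In CAR its change was 0.02 ± 0.04 (edgeR, adjusted p = 0.605), and 0.07 without DMSO replicate 3, which passed (edgeR, adjusted p = 0.0151).

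Counted over the members, 6 of 9 were lower and 1 was higher in CAR than in DMSO, where 30.1% of all tested genes were lower and 27.3% higher. In JQ1, 6 were lower and 3 higher, against 42.2% and 41.5% of all tested genes, so the count of higher members was near the background. In Combination, 6 were lower and 1 higher, against 42.8% and 42.6%. A lower level by at least 2-fold was found for 4 of 9 members in JQ1 (S100A4, S100A16, ANXA1 and ANXA3), against 18.2% of all tested genes, and for 4 in Combination (S100A4, S100A6, S100A16 and ANXA3), against 20.3%. No member reached that size in CAR, where 3.45% of all genes did. The median log2 change of the members was -0.19 in CAR, -0.82 in JQ1 and -0.96 in Combination, beside -0.02, -0.01 and 0.00 over all tested genes. These 3 comparisons share the DMSO libraries. In Combination 0 to 2 members were called higher when each library in turn was left out. With library totals alone all 9 members were called lower there and 0 higher, and after the length correction 6 were lower and 3 higher. The 9 members together took 0.541% to 0.617% of the counts of a DMSO library and 0.451% to 0.459% of a CAR library. They took 0.435% to 0.447% of a JQ1 library and 0.357% to 0.365% of a Combination library, so the 4 ranges did not overlap. These shares are of raw library totals, without TMM factors. With those factors the S100 members summed to 1598 to 1637 CPM in CAR and 1471 to 1535 in JQ1. The annexin members had the opposite order, with sums of 2809 to 2863 CPM in CAR and 2946 to 3010 in JQ1. ANXA2 (means of 1491 CPM in CAR and 1891 in JQ1) and ANXA5 (678 and 814) carried that order. ANXA1 (508 and 208) and ANXA3 (165 and 61.2) went the other way. Among the S100 members S100A10 was higher in JQ1 (392 and 558), S100A6 overlapped, and S100A4, S100A11 and S100A16 were lower. TMM factors were 1.022 to 1.024 in CAR and 0.984 to 0.986 in JQ1, and without them the annexin sums of these groups overlap.

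**Figure D2:**
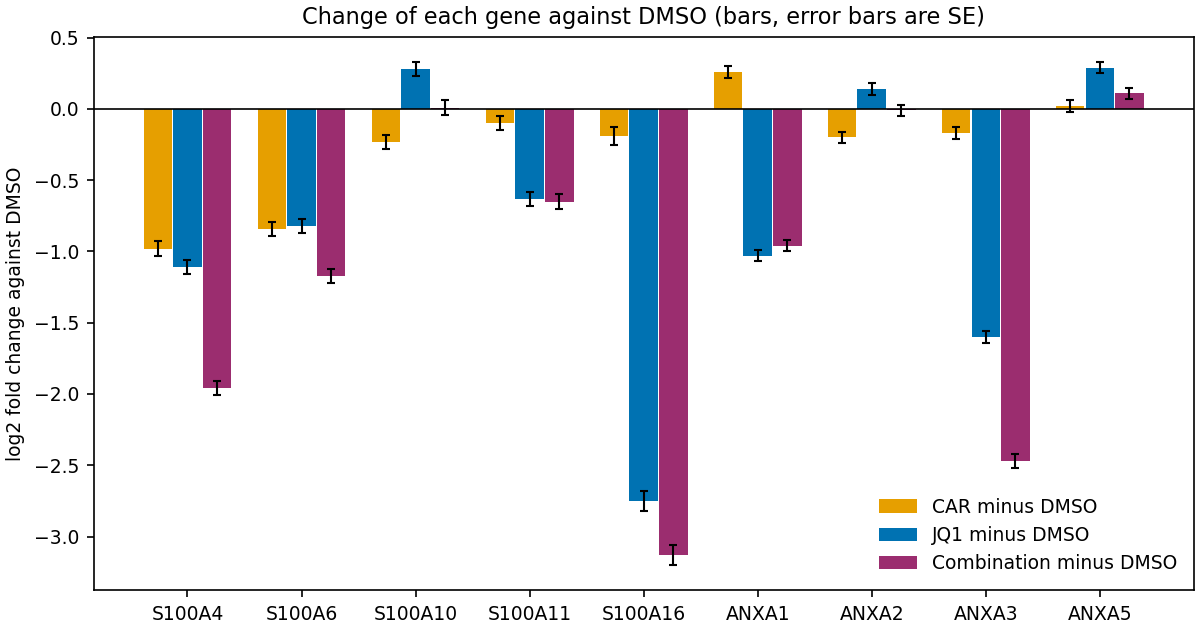
Log2 fold change against DMSO (vertical axis) of each member (horizontal axis) in CAR, JQ1 and Combination. Bars are fitted values and error bars their SE. S100A16 reached -2.75 in JQ1 and -3.13 in Combination, while S100A10, ANXA2 and ANXA5 stayed between -0.23 and 0.29, and for these 3 genes the sign in Combination turned with the scaling or the length correction.

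The order of the members by level was read per kilobase of transcript, as CPM per kilobase. In DMSO, S100A6 came first at 1565, with ANXA2 at 1185, and the libraries of these genes did not overlap. S100A11 at 514, S100A10 at 505, ANXA5 at 489 and S100A4 at 459 followed, and neighbours in this run overlapped between libraries. S100A16 at 243 and ANXA1 at 228 overlapped too, and ANXA3 was last at 122. In the drug groups ANXA2 came first and S100A6 next, with 1032 and 876 for CAR, 1309 and 887 for JQ1, and 1174 and 698 for both drugs. S100A16 stood next to last in CAR at 212, last in JQ1 at 36.0, and next to last in Combination at 27.7, above ANXA3 at 22.0. Libraries of neighbours in the order did not overlap in CAR or JQ1. In Combination S100A4 at 118 and ANXA1 at 117 overlapped.

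The comparison of Combination with each single drug asks what the second agent added. Against JQ1 alone, 7 of 9 members were lower and 0 higher by edgeR's quasi-likelihood test, where 25.9% of all tested genes were lower and 26% higher. The count of higher members was 0 as well at an unadjusted p under 0.05 and by DESeq2. The largest of these changes were in ANXA3 (-0.87 ± 0.05, edgeR, adjusted p = 5.94e-12) and S100A4 (-0.84 ± 0.06, edgeR, adjusted p = 4.67e-11). S100A16 (-0.38), S100A6 (-0.35), S100A10 (-0.27), ANXA5 (-0.18) and ANXA2 (-0.16) were lower by less. ANXA1 had a change of 0.07 ± 0.04 (edgeR, adjusted p = 0.143), with libraries of the 2 groups that did not overlap, and passed at 0.07 without DMSO replicate 3 (edgeR, adjusted p = 0.0329); no DMSO library is part of this comparison. S100A11 had a change of -0.02 ± 0.05 (edgeR, adjusted p = 0.814). Against CAR alone, 6 members were lower and 3 higher, beside 43% and 42.4% of all tested genes, and S100A16 (-2.94), ANXA3 (-2.30) and ANXA1 (-1.22) were lower by at least 2-fold, beside 19.9%. S100A4 (-0.98), S100A11 (-0.55) and S100A6 (-0.33) were lower by less, and S100A10 (0.24), ANXA2 (0.19) and ANXA5 (0.09) were higher. With library totals alone these 3 rises were 0.10, 0.04 and -0.05, and 0 members were called higher. The ANXA5 call against CAR (edgeR, adjusted p = 0.0362) was also lost without CAR replicate 1 or 2 (edgeR, adjusted p = 0.136 and 0.0714) and without Combination replicate 1 or 3 (edgeR, adjusted p = 0.114 and 0.0981).

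The interaction contrast tests whether the joint change differed from the sum of the single-drug log2 changes. S100A6 fell less than that sum: the sum predicted 334 CPM and the Combination libraries averaged 470 (interaction 0.49 ± 0.07, edgeR, adjusted p = 1.3e-05). ANXA3 fell further, with 54.2 CPM predicted and 33.5 observed (-0.70 ± 0.06, edgeR, adjusted p = 4.54e-08). ANXA1, at 249 predicted and 218 observed CPM, and ANXA5, at 827 and 720, were also lower than the sum (-0.19 ± 0.05 and -0.20 ± 0.05, edgeR, adjusted p = 0.00698 and 0.00525). In all, 3 members were lower and 1 higher than the sum, where 18.2% and 20.1% of all tested genes were. The interaction was 0.13 ± 0.07 for S100A4 (edgeR, adjusted p = 0.164), although both drugs alone lowered it, and -0.19 ± 0.10 for S100A16 (edgeR, adjusted p = 0.141). Those of S100A10 (-0.04), S100A11 (0.08) and ANXA2 (0.04) also missed the threshold. Single libraries and the length correction moved these calls. Without DMSO replicate 3, S100A10 (-0.13) and S100A16 (-0.27) passed as lower, which made 5 members lower, and S100A4 passed as higher at 0.19 without DMSO replicate 2 (edgeR, adjusted p = 0.0324). S100A16 also passed at -0.27 without Combination replicate 3 (edgeR, adjusted p = 0.0363), and was -0.11 without Combination replicate 1. After the length correction S100A16 passed at -0.22 (edgeR, adjusted p = 0.0138). With a replicate block added to that correction, S100A4 passed as higher at 0.12 (edgeR, adjusted p = 0.0497).

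**Figure D3:**
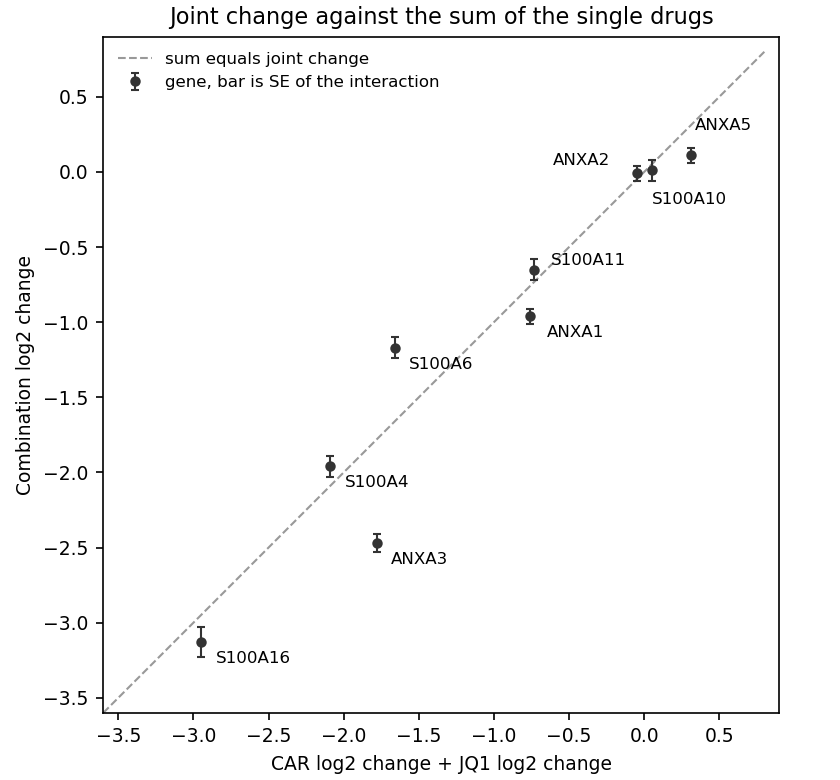
Log2 change in Combination against DMSO (vertical axis) beside the sum of the log2 changes in CAR and JQ1 (horizontal axis); each point is a member, the bar is the SE of the interaction and the dashed line marks equality. S100A6 lies above the line by 0.49 and ANXA3 below it by 0.70.

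The other genes of the 2 families were read from the full family lists. Of 20 S100 symbols, 15 were in the tables, and the 5 members held 96.8% to 98.4% of the summed CPM of the family. Of the 10 others, 4 passed the filter, and all 4 were lower in each of the 3 drug groups than in DMSO, where 30.1% of all tested genes were lower in CAR, 42.2% in JQ1 and 42.8% in Combination. Their median log2 change was -1.12 in CAR, -3.26 in JQ1 and -3.59 in Combination. Mean CPM of S100A13 in DMSO, CAR, JQ1 and Combination was 42.8, 29, 20.9 and 22.5. In the same order S100A3 had 14.3, 6.32, 1.17 and 1.11 CPM, S100A2 13.1, 6.30, 1.57 and 1.15, and S100A5 5.38, 2.22, 0.476 and 0.371. S100A5 passed the filter only through its DMSO and CAR libraries. The log2 changes in JQ1 were thus -3.61 for S100A3, -3.47 for S100A5, -3.06 for S100A2 and -1.03 for S100A13, and in CAR -1.18, -1.27, -1.06 and -0.56. The S100A3 reads come from within the span of S100A4, which fell by 1.11 in JQ1.

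All 4 lie with S100A6, S100A4 and S100A16 in the cluster from S100A6 (153534599) to S100A13 (153631360) on chromosome 1 in GENCODE v29 on GRCh38. All 7 genes of the cluster that passed the filter were lower in each drug group, against the same shares of all tested genes, by 0.19 to 1.27 on the log2 scale in CAR and by 0.82 to 3.61 in JQ1. S100A10 and S100A11 lie apart from the cluster, at 151982915 and 152032506. In JQ1 S100A10 rose (0.28) and S100A11 fell (-0.63). CHTOP, an mRNA export factor 2.6 kb beyond the cluster, had a log2 change of -0.12 in CAR, 0.57 in JQ1 and 0.64 in Combination. SNAPIN had -0.35, 0.46 and 0.38, and ILF2 0.15, -0.61 and -0.49, so these 3 neighbours did not share one direction. On the other side, FLG (1209.4 kb before the cluster) had -0.78, -0.94 and -1.85, and TCHH (1419.1 kb) -0.36, -0.16 and -1.30. Both were low in DMSO, at 0.79 and 0.869 CPM, and missed the threshold in CAR, as did TCHH in JQ1. THEM4 (1624.8 kb) had 0.12, 0.63 and 0.77.

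**Figure D4:**
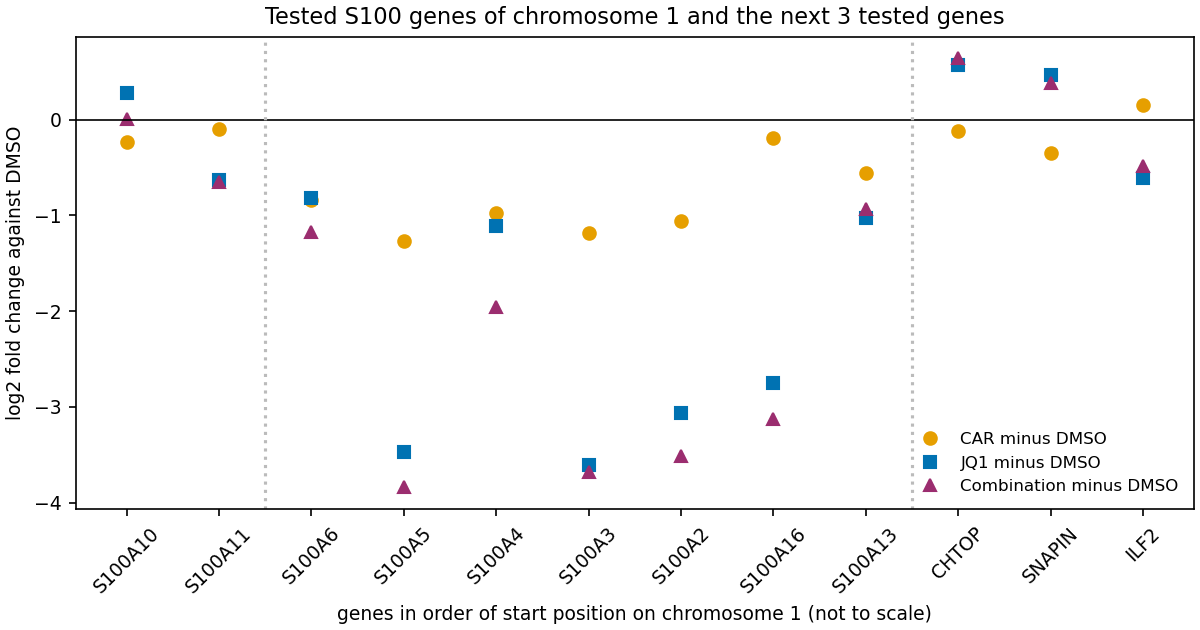
Log2 fold change against DMSO (vertical axis) in CAR, JQ1 and Combination for the S100 genes of chromosome 1 that passed the filter and the 3 tested genes beyond S100A13, in chromosome order (horizontal axis, not to scale); dotted lines bound the cluster. The genes from S100A6 to S100A13 lie below 0 in all 3 groups, while CHTOP and SNAPIN lie above 0 in JQ1 and Combination.

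Of 13 annexin symbols 12 were in the tables, and the 4 members held 76.4% to 80.3% of the summed CPM of that family. Of the 8 others, 6 passed the filter, ANXA10 only through its CAR libraries and ANXA8 only through those of DMSO and CAR. The counts and medians that follow include both genes. In CAR 2 were higher and 3 lower, where 27.3% of all tested genes were higher and 30.1% lower. In JQ1 2 were higher and 2 lower, against 41.5% and 42.2%, and in Combination 2 and 3, against 42.6% and 42.8%. Their median log2 change was -0.39 in CAR, -0.22 in JQ1 and -0.96 in Combination. ANXA6, which carries a doubled annexin core, was the most abundant annexin outside the members, at 485 ± 2.81 CPM in DMSO, 354 ± 6.16 in CAR, 347 ± 3.39 in JQ1 and 234 ± 8.06 in Combination (SD, n = 3). ANXA11, an RNA-granule and vesicle annexin, fell in CAR (-0.59) and Combination (-0.87), with a value of 0.04 in JQ1 (edgeR, adjusted p = 0.363) that was 0.08 and past the threshold without DMSO replicate 3 (edgeR, adjusted p = 0.0206). ANXA7 rose in all 3 groups (0.15, 0.36 and 0.62), though its CAR value was 0.09 and missed the threshold with library totals alone (edgeR, adjusted p = 0.0517). ANXA4 fell in CAR (-0.33) and rose in JQ1 (0.55) and Combination (0.67), which is the pattern of S100A10 for the single drugs but not for both together. ANXA10 was close to the floor of 3 counts in DMSO, JQ1 and Combination (0 to 3 counts per library) and had 33, 23 and 32 counts in CAR. Its call as higher in CAR is therefore not independent of the filter. ANXA8 was also low, with 18, 18 and 22 counts in DMSO and 6, 14 and 15 in CAR. It had 0 to 3 counts in the JQ1 and Combination libraries and was called lower than DMSO in both (-3.30 and -5.22), calls that are likewise not independent of the filter.

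Receptors of these proteins that passed the filter were BSG, AGER, TLR4 and FPR1, 4 of the 6 on the list. In JQ1, 3 of the 4 were lower and 1 higher, where 42.2% of all tested genes were lower and 41.5% higher, with a median log2 change of -1.50 beside -0.01 over all tested genes. BSG (basigin, a receptor for S100A9 and inducer of matrix metalloproteinases) rose from 468 ± 17 CPM in DMSO to 939 ± 27 in JQ1 and 899 ± 24 in Combination (SD, n = 3). S100A9, which is not a member, had 1 count in CAR replicate 1 and 0 in every other library. TLR4 went from 14.2 ± 0.862 CPM in DMSO to 3.09 ± 0.0605 in JQ1 and 3.14 ± 0.476 in Combination. FPR1, a receptor of annexin A1, was low throughout, at 3.69 ± 0.229 CPM in DMSO, 2.48 ± 0.0876 in CAR, 0.311 ± 0.127 in JQ1 and 0.605 ± 0.131 in Combination. It passed the filter only through its DMSO and CAR libraries. AGER (RAGE) was at 3.75 CPM in DMSO and 1.86 to 2.17 CPM in the means of the drug groups.

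The plasminogen system, which the annexin A2 complex localises at the cell surface, had 6 of 7 listed genes past the filter. In JQ1, 5 were lower and 0 higher by edgeR (also 0 at an unadjusted p under 0.05 and by DESeq2), in Combination 4 lower and 1 higher, and in CAR 2 lower and 2 higher. Of all tested genes, 42.2% were lower and 41.5% higher in JQ1, 42.8% and 42.6% in Combination, and 30.1% and 27.3% in CAR. The median log2 change was -1.0 in JQ1, -1.05 in Combination and 0.08 in CAR. PLAU (urokinase) had 338, 336 and 346 CPM with vehicle and 204, 210 and 204 with CAR, then 59.5, 60.9 and 60.1 with JQ1 and 33.3, 35.5 and 39.4 with both drugs. PLAT (tissue plasminogen activator) had a mean of 136 ± 2.24 CPM with vehicle, 65.7 ± 4.41 with CAR, 48.5 ± 1.78 with JQ1 and 41.1 ± 0.943 with both drugs. Both activators were thus lower in each drug group, in which S100A10 and ANXA2 changed by 0.28 at most. The urokinase receptor PLAUR rose in CAR (0.44) and fell in JQ1 (-0.51) and Combination (-0.91). ENO1, an enolase that also binds plasminogen, fell in JQ1 (-0.23) and rose in Combination (0.37), but its JQ1 value was -0.04 after the length correction and no longer past the threshold (edgeR, adjusted p = 0.14).

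Scaffold and cargo proteins of the annexin A2 complex that passed the filter were 4 of 9 listed, and all 4 were higher in JQ1, where 41.5% of all tested genes were, with a median log2 change of 0.41. DLC1, a GTPase-activating protein that S100A10 binds, rose from 113 ± 6.84 CPM in DMSO to 241 ± 2.03 in JQ1 and 168 ± 5.34 in Combination. AHNAK2 rose in JQ1 (0.39, and 0.25 without DMSO replicate 3) and Combination (0.61). AHNAK, the giant scaffold of the complex, had 4085, 4361 and 2951 CPM in DMSO, where the third library was well below the others, and 5186, 5322 and 4830 in JQ1 (0.43 ± 0.12, edgeR, adjusted p = 0.00835). Without DMSO replicate 3 this change was 0.28 (edgeR, adjusted p = 8.62e-09).

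Targets of S100 proteins (16 of 16 listed passed the filter) were lower in 9 cases and higher in 3 in JQ1, and lower in 11 and higher in 2 in Combination, beside 42.2% lower and 41.5% higher of all tested genes in JQ1 and 42.8% and 42.6% in Combination. The median log2 change was -0.16 in JQ1 and -0.37 in Combination, and with library totals alone or after the length correction the JQ1 counts were 12 lower and 2 higher, or 7 lower and 5 higher. MYH9, the myosin that S100A4 binds, had 2252, 2228 and 2072 CPM in DMSO and 1795, 1789 and 1748 in CAR. It had 4161, 4244 and 4201 CPM in JQ1 and 2395, 2367 and 2395 in Combination. The log2 change was 0.94 ± 0.03 in JQ1 and -0.30 ± 0.03 in CAR, so MYH9 moved opposite to S100A4 in JQ1 and the same way in CAR. CACYBP, the partner of S100A6, rose in CAR (0.24) and fell in JQ1 (-0.59) and Combination (-0.71). PPP5C, SEPTIN7 and MDM2 fell in JQ1 (-0.85, -0.47 and -0.56) and Combination (-0.74, -0.51 and -0.63), and EZR, a membrane-actin linker, rose in all 3 groups (0.21, 0.27 and 0.31).

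Membrane repair partners of annexins (12 of 14 listed passed) were lower in 8 cases and higher in 1 in CAR, and higher in 8 and lower in 4 in JQ1, with medians of -0.12 and 0.26. Of all tested genes, 30.1% were lower and 27.3% higher in CAR, and 41.5% were higher and 42.2% lower in JQ1. After the length correction 5 were lower and 2 higher in CAR. PDCD6IP (ALIX), PDCD6 (ALG-2) and TSG101, which recruit the ESCRT machinery to damaged membrane, rose in JQ1 (0.66, 0.70 and 0.41) and Combination (0.94, 0.74 and 0.66). The calpain CAPN2 and the ferlin MYOF, in contrast, fell in JQ1 (-0.64 and -1.12) and Combination (-0.67 and -1.28). Another ferlin, DYSF, rose in JQ1 (0.28) and fell in CAR (-0.65). Among the calpain genes CAPNS1 rose (0.18) and CAPN1 fell (-0.18) in JQ1. The CAPNS1 call was lost at 0.06 with library totals alone (edgeR, adjusted p = 0.23). That of CAPN1 was lost at 0.02 after the length correction (edgeR, adjusted p = 0.645). Other EF-hand calcium sensors (18 of 20 listed passed) were higher in 7 cases and lower in 8 in JQ1, with a median of -0.17, and 6 higher and 11 lower with library totals alone. The first of these counts were near the shares of all tested genes, 41.5% higher and 42.2% lower. The calmodulin genes CALM2 (-0.59 and -1.15) and CALM3 (-0.44 and -0.77) fell in JQ1 and Combination, as did EFHD2 (-1.63 and -1.22) and SRI (-0.93 and -1.29). SWAP70 rose in both groups (0.35 and 0.60). Of the phospholipases A2, which annexins can inhibit, PLA2G4A fell in JQ1 (-1.72) and Combination (-2.57) and PLA2G6 rose (0.83 and 0.34), the latter 0.13 and past no threshold with library totals alone (edgeR, adjusted p = 0.231).

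The genes most like each member were found as the smallest Euclidean distance between the log2 changes in CAR, JQ1 and Combination, over the group means of 12 libraries and among 10375 tested genes outside both families with a mean of at least 5 CPM. S100A16 was closest to BRIP1 (distance 0.0238), with changes of -0.21, -2.76 and -3.12, and then to ARHGDIB (0.0974). ANXA3 was closest to PON2 (0.185) and CAV1 (0.19), and S100A4 to PHYHD1 (0.217) and C1orf115 (0.219), so these 2 members had no gene as near to them as the others had. S100A6 was closest to IQSEC2 (0.0918) and SHISA2 (0.129), and ANXA1 to DNAJC7 (0.0557) and NCS1 (0.0736). Among the members that changed less, S100A11 lay near MED30 (0.0202). S100A10 was closest to WDSUB1 (0.0228) and AP3S1 (0.0429), ANXA2 to SPTSSA (0.0182) and PKN2 (0.0258), and ANXA5 to LYRM2 (0.0353) and KLHL20 (0.0396).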

How the data were processed

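Each library had 1 deposited table, in which the authors gave raw counts by gene symbol as whole numbers. Per the labels' protocols, libraries were made with a stranded poly(A) kit from RNA with an integrity number of at least 7. Per the submitters' processing notes, the tools included HISAT2, HTSeq and Trimmomatic and the build was hg38. Settings, annotation and use of strand: not given in the sources used here. Groups came from the treatment labels and titles.

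The analysis of these counts used edgeR 4.0.16 under R 4.3.3: filterByExpr (minimum count 10, minimum total 15; 12645 of 16384 genes kept), TMM factors (0.921 to 1.08), and a robust quasi-likelihood fit of all 12 libraries with 1 coefficient per group (8 residual degrees of freedom, common biological coefficient of variation 0.0408). Calls are at a Benjamini-Hochberg adjusted p under 0.05 over all tested genes in each of 6 contrasts. The steps were tested on simulated data. Total counts were 17449715 to 19754456 per library, and 3 counts, the floor, were 0.147 to 0.177 CPM, for counting error only. The median length of a gene's coding transcripts came from GENCODE v29 (16223 of 16384 symbols matched) and promoters from RefSeq GRCh38.p14.

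The 9 members and all lists were chosen with earlier results of these data known. Named were all members, family genes with at least 5 CPM in any group and the 2 nearest genes per member. Each partner list gave up to 4 called genes with the smallest adjusted p in Combination and up to 2 that moved the other way. AHNAK, DYSF, CAPNS1, CAPN1, the ANXA8 and ANXA10 counts and the genes next to the S100 cluster were named after their values were seen. Some genes that this rule names are not reported here. Alternatives were other scalings, no filter, DESeq2 1.42.0, the contrast's groups alone, a replicate block, a length correction, and leaving out each library.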

Additional observations from a re-analysis of the deposited data

Results flagged for a closer look

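For 4 of 9 members the effect of JQ1 differed between cells with and without CAR, by the interaction term of edgeR's fit. Of these, 1 was higher and 3 lower, where 20.1% of all tested genes were higher and 18.2% lower, so such calls were common. The JQ1 effect with CAR minus that without CAR was 0.49 on the log2 scale for S100A6, the calcyclin gene (edgeR, adjusted p = 1.3e-05). It was -0.70 for ANXA3 (edgeR, adjusted p = 4.54e-08), -0.19 for ANXA1 (edgeR, adjusted p = 0.00698) and -0.20 for ANXA5 (edgeR, adjusted p = 0.00525). Under the alternatives run, the interaction ranged from 0.41 to 0.54 for S100A6, from -0.75 to -0.67 for ANXA3, from -0.25 to -0.17 for ANXA1 and from -0.25 to -0.18 for ANXA5.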

How the results depend on the processing

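Of 1125 member log2 changes recomputed under alternatives, 1073 kept their direction and side of the threshold, 13 lost the call, 18 gained it and 21 turned direction. All changes of S100A4, S100A6, S100A16, ANXA1 and ANXA3 against DMSO kept both. With library totals alone the median of all genes shifted to -0.13 in JQ1, -0.21 in Combination and -0.15 in Combination against CAR, and the share of higher genes among those called went from 47.6% to 35.7% in CAR, from 49.9% to 39.3% in Combination and from 50.1% to 32.9% in Combination against JQ1. With the length correction the median was 0.14, 0.17 and 0.11, and the share in CAR 59.2%. Direction turned for ANXA5 in CAR (-0.04 with library totals, -0.01 with upper quartiles, -0.00 without DMSO replicate 2, in a range up to 0.07 over the libraries left out) and in Combination against DMSO (-0.10) and against CAR (-0.05) with library totals. It turned for S100A10 in Combination against DMSO (-0.20 with library totals, -0.06 with upper quartiles, -0.00 with those groups alone, -0.03 and -0.04 without DMSO replicate 1 or 2), and for its interaction (0.00 without DMSO replicate 2). It turned for ANXA2 in Combination against DMSO (0.13 with the length correction, with or without the replicate block, 0.05 without DMSO replicate 3, 0.00 without Combination replicate 1) and for its interaction (-0.01 with the length correction or without DMSO replicate 3, in a range up to 0.07). It turned against JQ1 for ANXA1 (-0.02 with library totals) and S100A11 (0.03 without JQ1 replicate 3, 0.02 without Combination replicate 1, in a range from -0.07). Members called higher in Combination against DMSO numbered 0 with library totals, upper quartiles or those groups alone and 3 with the length correction, with or without the block. Against CAR they numbered 0 with library totals, and in the interaction 2 with the length correction and block. Leaving out 1 library gave 1 to 2 higher in CAR, 0 to 2 in Combination, 0 to 1 against JQ1, and 1 to 2 higher and 3 to 5 lower in the interaction. The causes were not tested beyond these settings. Replicate numbers did not pair the libraries: 0 of 18 correlations of same-numbered libraries exceeded 0.1 (-0.045 to 0.0564), and 0 of 12 libraries correlated best with their own number in every other group. With the replicate block, 7221, 10551, 10786, 6518, 10786 and 4785 genes were called in the 6 contrasts, against 7250, 10580, 10801, 6567, 10800 and 4841 without it, and no count of members changed.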
